A study of Mus musculus with 20 samples.

Results

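The 10 genes described here are those by which principal cells of the renal collecting duct are commonly recognized, namely Aqp2, Aqp3, Aqp4, Avpr2, Scnn1a, Scnn1b, Scnn1g, Hsd11b2, Fxyd4 and Gata3. They were taken by name from a gene count table of 54532 genes, and were measured in all 20 libraries. The libraries were bulk poly(A) RNA from 10 tumors and 10 normal kidneys of C57BL/6 mice of the Cre-less AAV model. All 20 libraries came from LSL-Cas9/+; Pax8 Cre/+ animals, in which the Pax8 promoter drives Cre and thereby Cas9. An adeno-associated virus (AAV) without Cre, which carried sgRNAs for Vhl, Pbrm1, Keap1 and Tsc1, had been injected into the kidney. The normal kidney libraries were regions of kidney from the same injected mice, so that both groups carry both alleles and come from animals given the virus. Pax8 is active in most of the renal tubule and in the collecting duct, and a tumor is a mixture of tumor, stromal, vascular and immune cells, which limits both groups as a picture of a single cell type. The age and sex of the mouse behind a library were not given in the labels.

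Principal cells set how much water and sodium leave the body in urine. Vasopressin binds the receptor encoded by Avpr2, raises cyclic AMP and moves the water channel aquaporin 2 (Aqp2) to the apical membrane, while aquaporins 3 and 4 (Aqp3, Aqp4) let the water out on the basolateral side. Aldosterone acts through the mineralocorticoid receptor to raise the activity of the epithelial sodium channel, ENaC, which is built from the subunits Scnn1a, Scnn1b and Scnn1g, and Hsd11b2 inactivates glucocorticoids that would otherwise occupy that receptor. Fxyd4 is a small partner of the sodium pump, and Gata3 is a transcription factor of the nephric duct and its derivatives.

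Normal kidney libraries held 14737516 to 26679704 counts and tumor libraries 18447394 to 24902973, and 15354 genes had enough counts to be tested. Mitochondrial genes took up 7.12% to 12.2% of the counts of a normal kidney and 2.09% to 4.93% of those of a tumor. The normal kidney libraries held strong kidney markers, such as Umod of the loop of Henle (median 4219 CPM) and Slc34a1 of the proximal tubule (2102 ± 1313 CPM, SD, n = 10). Slc34a1 varied widely, from 139.6 to 3582 CPM in normal kidneys, and the lowest tumor was at 130.1 CPM. Normal kidney 9 stood apart from the other kidneys by gene length, because genes under 2000 bases reached a median of 205.7% of their level in the other 9 kidneys and genes over 3500 bases 70.0%. Tumor 7 stood apart from the other tumors by its stromal markers, with 8035 summed CPM of 7 fibroblast markers against a median of 216.3 over all 10 tumors.

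For Aqp2 the annotated start region was read from RefSeq (GRCm38.p6), because this gene had the largest fitted fall of the set and a GATA factor, Gata3, belongs to the set. Promoter sequences were matched for 7 of the 10 genes. The 250 bases before the start are printed for Aqp2 (chr15:99578806-99579055, plus strand) and, for contrast, for Aqp3 (chr4:41098184-41098433, minus strand), the gene of the set with the most reads in any single tumor. Capitals mark, on either strand, GATA words (GATA with A or T before it and A or G after it) and the short cyclic AMP site TGACG, which is contained in the full element given below.
Aqp2: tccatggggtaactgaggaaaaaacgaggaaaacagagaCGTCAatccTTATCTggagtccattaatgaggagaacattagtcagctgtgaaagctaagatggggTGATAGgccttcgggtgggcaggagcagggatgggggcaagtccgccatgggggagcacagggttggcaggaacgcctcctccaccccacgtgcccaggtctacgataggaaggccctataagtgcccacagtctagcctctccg
Aqp3: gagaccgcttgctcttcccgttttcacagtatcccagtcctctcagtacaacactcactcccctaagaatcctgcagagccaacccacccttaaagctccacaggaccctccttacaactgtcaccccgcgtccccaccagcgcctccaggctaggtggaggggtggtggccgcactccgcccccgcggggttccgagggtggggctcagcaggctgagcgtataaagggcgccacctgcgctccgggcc
The Aqp2 window held 2 GATA words, which began 145 and 202 bases before the start, and 1 short cyclic AMP site at 211 bases. Of 32851 RefSeq promoter windows of the same length, 26.5% held a GATA word and 17.8% the short cyclic AMP site. Of the 7 windows used 1 held a GATA word and 1 the short site, in both cases that of Aqp2, and the Aqp3 window held neither. The full cyclic AMP element TGACGTCA (1.55% of all windows) and the tonicity word TGGAAA (18.6%) were in 0 of the 7, and the steroid receptor word TGTTCT (16.1%) was in 2, those of Aqp2 and Avpr2. These matches describe letters in the windows and say nothing about binding.

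In normal kidney the genes were ordered by RPKM, the normalised read count per kilobase of gene length, the only scale on which levels of different genes are compared here. Aqp2 was the most abundant at 222.2 ± 166 RPKM (SD, n = 10), and stood above Hsd11b2 (58.8 ± 32.4 RPKM) in 10 of 10 kidneys. Scnn1a followed at 49.7 ± 12.3 RPKM and Aqp3 at 47.1 ± 18.4 RPKM. Hsd11b2, Scnn1a and Aqp3 lay within their spread, since Hsd11b2 exceeded Scnn1a in 7 of 10 kidneys and Scnn1a exceeded Aqp3 in 5 of 10. Scnn1b (19.0 ± 5.24 RPKM) came next, below Aqp3 in 10 of 10 kidneys. Scnn1g (14.6 ± 7.16 RPKM) lay below Scnn1b in 9 of 10, and Fxyd4 (11.98 ± 9.10 RPKM) differed from Scnn1g by less than the spread between kidneys. Aqp4 reached 5.91 ± 3.54 RPKM and Gata3 3.16 ± 1.19 RPKM, while Avpr2 was close to 0 at 0.0112 ± 0.0164 RPKM.

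Tumors were then compared with normal kidneys across the 15354 genes by the quasi-likelihood test of edgeR, with Benjamini-Hochberg adjustment over all of them. Of the set 9 genes could be tested and each was lower in tumor, where the share of all tested genes called lower was 23.8%. These genes passed the filter on low counts through the normal kidneys, so their number is a description and no support for a fall of the set. In each of these genes all 10 tumors lay below all 10 normal kidneys, a pattern that 4.74% of all tested genes showed. By the limits of a log2 fold change beyond 1 and an unadjusted p under 0.001, 10.2% of all tested genes were lower and 8.85% higher, and the 9 genes were among the former. The summed level of the 10 genes was 400.6 to 1427 CPM in normal kidneys and 0.990 to 37.2 CPM in tumors, with upper ends of 1051 CPM without normal kidney 9 and 9.57 CPM without tumor 7. In bulk tissue a smaller number of principal cells and less RNA per cell cannot be told apart.

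**Figure D1:**
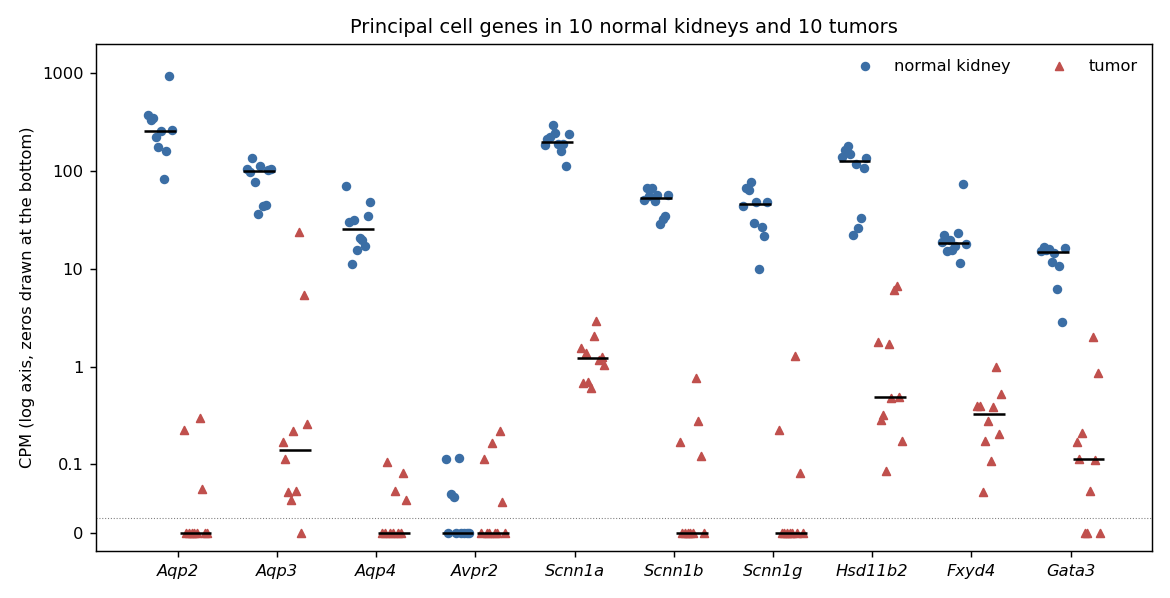
CPM (log axis) of each gene in 10 normal kidneys (circles) and 10 tumors (triangles), with bars at the group medians and zeros drawn at the bottom. The groups do not overlap in any gene but Avpr2, where both sit at or near 0, and Aqp2 goes from a median of 258.1 CPM to a median of 0.

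Among the water channels, Aqp2 (chromosome 15, 99579055 to 99584547, plus strand; coordinates here and below as the deposited table gives them, build mm10 per the labels) ranged from 83.4 through a median of 258.1 to 933.8 CPM in normal kidneys. In tumors it ranged from 0 through a median of 0 to 0.299 CPM. Normal kidney 9 was the highest kidney, the next being at 377.6 CPM, and 7 of 10 tumors had not 1 read. The log2 fold change was -12.24 ± 0.68 (SE, adjusted p = 1.22e-11), the 4th largest fall among all genes tested. Over all tumors 12 reads were counted in place of 57600, and the pooled level was 0.0202% of that of the normal kidneys (exact 95% interval 0.0104% to 0.0352%, counting error only). The fitted value was -13.17 without tumor 7, which held 7 of the 12 reads.

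Aqp4 (chromosome 18, 15389394 to 15403684, minus strand) ranged from 11.3 through 25.4 to 70.5 CPM in normal kidneys and from 0 through 0 to 0.105 CPM in tumors. No tumor had more than 2 reads, and 6 of 10 had 0. Its log2 fold change was -9.72 ± 0.52 (SE, adjusted p = 7.07e-12), with a pooled tumor level of 0.102% of normal (0.0372% to 0.221%).

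Aqp3 (chromosome 4, 41092722 to 41098183, minus strand) was the water channel with the most uneven levels among tumors. It ranged from 36.8 through 100.9 to 135.4 CPM in normal kidneys and from 0 through 0.141 to 23.6 CPM in tumors. Tumor 7 had 552 reads (23.6 CPM) and tumor 9 had 132 reads (5.39 CPM), whereas the other 8 tumors had at most 0.260 CPM, so that the groups did not overlap and only tumor 7 came near the lowest kidney. The log2 fold change was -4.82 ± 0.98 (SE, adjusted p = 0.000378). It depended on 1 library, with a value of -6.82 without tumor 7, and reached -9.29 without tumors 7, 8 and 9, a choice made after seeing the data.

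All 3 ENaC subunits were lower in tumor. Scnn1a, the alpha subunit (chromosome 6, 125320659 to 125344943, plus strand), ranged from 114.2 through 200.3 to 297.6 CPM in normal kidneys and from 0.609 through 1.21 to 2.90 CPM in tumors. It was the member with the least spread between kidneys (coefficient of variation 24.7%), and every tumor still had between 11 and 68 reads. Its log2 fold change was -7.26 ± 0.30 (SE, adjusted p = 3.82e-13). The mean tumor level was 0.649% of that of normal kidney.

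Scnn1b, the beta subunit, ranged from 28.4 through 53.6 to 67.1 CPM in normal kidneys and from 0 through 0 to 0.768 CPM in tumors. Scnn1g, the gamma subunit, ranged from 10.0 through 46.1 to 76.5 CPM and from 0 through 0 to 1.28 CPM. The highest tumor was tumor 7 in both genes, with 18 and 30 reads, while 6 tumors had no read of Scnn1b and 7 had none of Scnn1g. The log2 fold changes were -8.42 ± 0.56 for Scnn1b (SE, adjusted p = 1.57e-10) and -7.94 ± 0.73 for Scnn1g (adjusted p = 1.66e-08). Without tumor 7 they were -9.54 and -10.11. The genes are neighbours on chromosome 7, Scnn1g at 121734479 to 121768475 and Scnn1b at 121865038 to 121918514, both on the plus strand with 96562 bases between them.

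Per length, the alpha subunit exceeded the others in all 10 normal kidneys. The ratio of Scnn1a to Scnn1b lay between 2.03 and 3.73 (median 2.59), and that of Scnn1a to Scnn1g between 2.31 and 11.5 (median 3.30). The ratio to the gamma subunit therefore varied more from kidney to kidney than that to the beta subunit. Its highest values were those of kidneys 7 (11.5), 5 (6.13) and 8 (5.03), and the other kidneys reached at most 3.77. In tumors the ratios could not be given for most libraries, since the beta and gamma subunits were at 0.

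Avpr2, the vasopressin receptor (chromosome X, 73892102 to 73895502, plus strand), had 0 to 2 reads in a normal kidney and 0 to 4 in a tumor. The totals were 6 reads in normal kidneys and 10 in tumors, with 6 libraries of each group at 0, so that the gene failed the filter and was not tested. Pooled, the tumor level was 161.3% of normal with an exact 95% interval of 53.1% to 539.9%, and a difference was not detectable with so few reads. Of its 2886 exonic bases, 2347 (81.3%) are shared with exons of Arhgap4 on the opposite strand in the GENCODE M21 annotation of GRCm38. Whether the counting used strand is not given in the sources used here, and the part of this overlap in the low counts was not tested.

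Hsd11b2, the enzyme that protects the mineralocorticoid receptor (chromosome 8, 105518755 to 105523988, plus strand), ranged from 22.3 through 127.9 to 180.8 CPM in normal kidneys and from 0.0861 through 0.486 to 6.75 CPM in tumors. Tumors 8 and 7 were the highest tumors, at 6.75 and 6.02 CPM, and kidneys 5, 7 and 8 were the lowest kidneys. The log2 fold change was -5.90 ± 0.74 (SE, adjusted p = 1.17e-06), and -7.31 without tumors 7, 8 and 9.

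Fxyd4, the partner of the sodium pump (chromosome 6, 117933559 to 117937692, minus strand), ranged from 11.4 through 18.4 to 73.1 CPM in normal kidneys and from 0.0527 through 0.330 to 0.996 CPM in tumors. The highest kidney was kidney 9, and without it the range ended at 23.0 CPM. Tumor 8 was the highest tumor, with 18 reads. The log2 fold change was -6.05 ± 0.45 (SE, adjusted p = 6.20e-10).

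Gata3, the transcription factor (chromosome 2, 9857078 to 9890034, minus strand), ranged from 2.83 through 14.8 to 16.8 CPM in normal kidneys and from 0 through 0.112 to 2.01 CPM in tumors. Kidney 9 was the lowest kidney, and tumors 7 (47 reads, 2.01 CPM) and 9 (21 reads, 0.857 CPM) were the highest tumors. All tumors lay below kidney 9, and the next lowest kidney was at 6.17 CPM. The other 8 tumors had at most 0.211 CPM. The log2 fold change was -5.08 ± 0.70 (SE, adjusted p = 4.74e-06), and -6.10 without tumor 7.

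**Figure D2:**
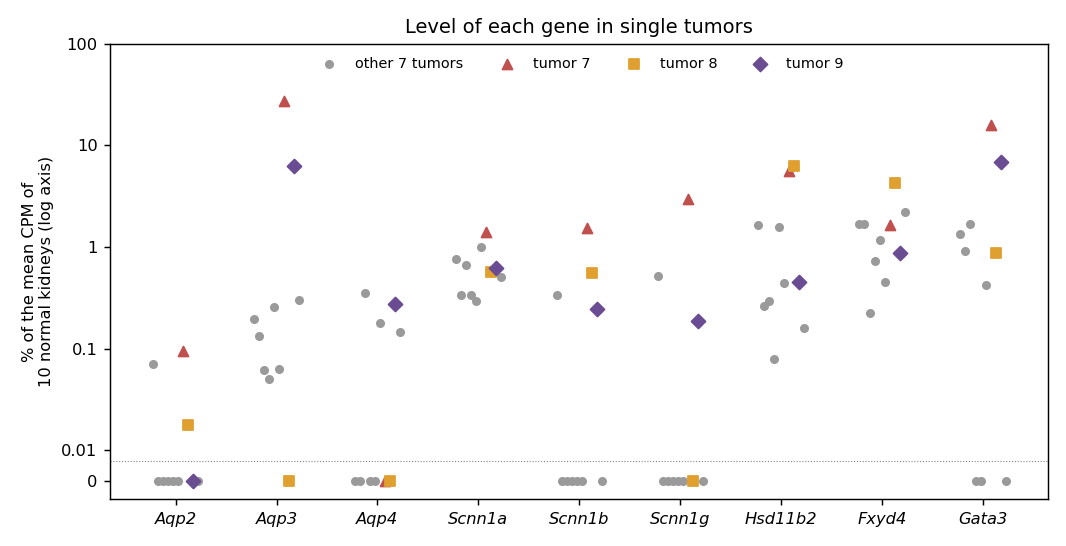
Level of each testable gene in every tumor as a percentage (log axis) of the mean CPM of the 10 normal kidneys, with tumors 7, 8 and 9 drawn in their own colours and shapes and zeros at the bottom. Tumors 7 and 9 lead in Aqp3 and Gata3, tumor 8 in Hsd11b2 and Fxyd4, and most other points lie under 1%.

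Tumors 7 and 9, the highest and second highest in Aqp3 and Gata3, held the same ranks in 6 of 7 urothelial markers. Krt5, a basal keratin, was at 56.6 CPM in tumor 7 and 6.61 CPM in tumor 9, against at most 1.38 CPM in the other 8 tumors. The uroplakin Upk1b was at 39.8 and 4.82 CPM against at most 0.965 CPM, and Upk3a at 12.5 and 2.37 CPM against at most 0.0865 CPM. Trp63, a basal cell factor, was at 6.27 and 1.47 CPM against at most 0.301 CPM. The exception was Krt20, which was highest in tumor 7 (760.8 CPM) but ranked 8th in tumor 9 (54.4 CPM). Summed over the 7 markers the level was 8.80 to 380.3 CPM in normal kidneys and 28.7 to 893.1 CPM in tumors, none of the 7 passed the test (0 higher and 0 lower), and without tumor 7, where the sum ended at 184.7 CPM in tumors, the test called 6 lower and 0 higher. The upper ends of these sums were mostly Krt20, at 760.8 CPM in tumor 7, 182.6 CPM in tumor 8 and 334.3 CPM in kidney 7. They therefore do not describe the other urothelial markers. With all libraries limma-voom called 5 lower and 1 higher, and DESeq2 4 lower and 0 higher. Aqp3 made up 63.3% of the summed 10 genes in tumor 7 and 63.2% in tumor 9, against 0% to 12.8% in the other tumors and 6.07% to 13.4% in normal kidneys. The part of urothelial RNA in these 2 tumors in the levels of Aqp3 and Gata3 was not tested.

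The relatives of the 10 genes did not share 1 direction. Among the other aquaporins, 5 of 9 were tested, of which 3 were lower and 2 higher (median log2 fold change -1.13, against -0.02 over all genes tested). Aqp6, an intracellular channel of intercalated cells, was lower (-9.84 ± 0.62, SE), and so was Aqp1, the main water channel of the proximal tubule and thin descending limb, which ranged from 130.9 to 2137 CPM in normal kidneys and from 87.9 to 312.9 CPM in tumors (-2.62 ± 0.39). Aqp11 was also lower (-1.13 ± 0.31). Aqp8 went the other way, from 0.0976 to 2.76 CPM in normal kidneys to 17.1 to 665.3 CPM in tumors, a log2 fold change of 8.23 ± 0.74 (adjusted p = 9.79e-09) with no overlap between the groups, where 23.6% of all tested genes were called higher and 5.87% had every tumor above every normal kidney. Aqp7, a channel for water and glycerol, was 1.00 ± 0.18 higher. In tumor 7 Aqp8 had its lowest tumor level, the opposite of Aqp3.

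Gata2 fell by 2.88 ± 0.36 on the log2 scale (SE, adjusted p = 1.00e-06), while Gata6 was higher by 2.44 ± 0.42 (adjusted p = 5.86e-05), and the remaining 3 GATA genes were not tested. Of 6 other FXYD genes 4 were tested and 1 was lower, Fxyd6 (-1.27 ± 0.35, and -1.88 without tumor 7, when 2 of the list were lower). Fxyd2, the gamma subunit of the sodium pump in the kidney, did not pass the test at 1521 ± 1114 CPM in normal kidneys and 1249 ± 259 CPM in tumors (SD, n = 10 each). Hsd11b1, which regenerates glucocorticoids where Hsd11b2 inactivates them, was lower too (-1.93 ± 0.40). The vasopressin receptor of the other class, Avpr1a, was also lower (-2.62 ± 0.58, and -3.40 without tumor 7), and with the oxytocin receptor gene Oxtr 3 of 3 tested relatives of Avpr2 and Hsd11b2 were lower. Both tested acid-sensing channels, which belong to the same channel family as ENaC, were lower (2 of 5 tested, median log2 fold change -2.44).

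**Figure D3:**
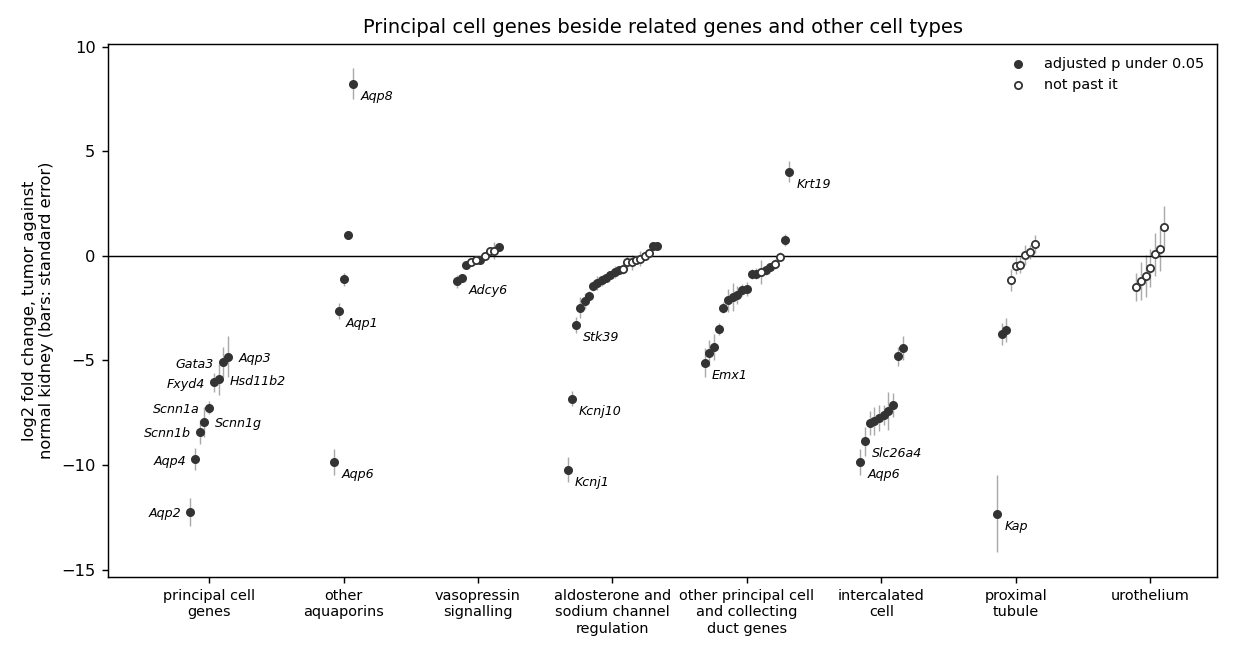
Log2 fold change of tumor against normal kidney for each tested gene of 8 lists, with standard errors as bars and filled points for an adjusted p under 0.05. The principal cell genes span -12.24 to -4.82 and the intercalated cell markers -9.84 to -4.41, while the vasopressin and aldosterone pathway genes lie closer to 0 except Kcnj1 and Kcnj10.

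The signalling genes downstream of the vasopressin receptor had log2 fold changes much closer to 0 than Aqp2, a difference that was not itself tested. Of 12 genes 10 were tested, of which 4 were lower and 1 higher (median -0.21), and over the alternatives these counts ranged from 2 to 6 lower (6 without kidney 9) and from 0 to 1 higher. Adcy6, the adenylyl cyclase that responds to vasopressin, was lower (131.6 ± 32.8 CPM in normal kidneys, 63.1 ± 9.95 CPM in tumors, SD, n = 10 each), with a log2 fold change of -1.06 ± 0.15. Ptger4, a prostaglandin E2 receptor that also raises cyclic AMP, was lower by a similar amount (-1.22 ± 0.31).

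Of 22 genes of aldosterone action and ENaC regulation, all tested, 13 were lower and 2 higher (median -0.84). Nr3c2, the mineralocorticoid receptor, ranged from 6.91 to 26.8 CPM in normal kidneys and from 2.32 to 6.90 CPM in tumors and was lower (-1.90 ± 0.23 on the log2 scale, adjusted p = 6.11e-07). Its target Sgk1, a kinase that raises ENaC activity, did not pass the test at 336.7 ± 182 CPM in normal kidneys and 306.6 ± 248.6 CPM in tumors (-0.14 ± 0.37). Nedd4l, the ubiquitin ligase that removes ENaC from the membrane, was lower (-1.06 ± 0.16).

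Genes of ENaC cleavage and of the WNK pathway went both ways. Of the proteases that activate the channel, Prss8 had a log2 fold change of -1.28 ± 0.33 and St14 of -2.47 ± 0.49, their inhibitor Spint1 was higher (0.49 ± 0.15), and the related Spint2 did not pass the test (-0.19 ± 0.15), although with library totals it was called lower (-0.28, adjusted p = 0.0398). Stk39, a kinase under the WNK kinases, was lower (-3.28 ± 0.38), as were Wnk4 (-1.43 ± 0.23) and Klhl3 (-2.16 ± 0.39), whereas Oxsr1, the kinase most related to Stk39, was higher (0.46 ± 0.10), a call lost with library totals as the scale (0.31, adjusted p = 0.0514). Cul3, the scaffold of the ubiquitin ligase that uses Klhl3, did not pass the test (-0.01 ± 0.08). The largest falls of the list were in potassium channels. Kcnj1, the apical channel by which principal cells and the thick limb secrete or recycle potassium, ranged from 44.3 to 371.4 CPM in normal kidneys and from 0 to 0.427 CPM in tumors (-10.22 ± 0.61), and Kcnj10 of the basolateral side fell by 6.82 ± 0.35 on the log2 scale.

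Of 19 other genes of principal cells and the collecting duct, all tested, 14 were lower and 2 higher (median -1.60). The transcription factors Elf5 (-4.35 ± 0.63) and Hoxd8 (-2.47 ± 0.26) were lower, and so were the duct ligands Wnt7b (-4.65 ± 0.63, and -5.73 without tumor 7) and Wnt9b (-3.50 ± 0.31). Emx1, a homeobox gene also used as a connecting tubule marker, fell by 5.11 ± 0.68 on the log2 scale. The keratins of simple epithelium split. Krt18 was lower (-2.13 ± 0.55), Krt19 was higher (20.2 ± 19.8 CPM in normal kidneys and 330.7 ± 215 CPM in tumors, 4.03 ± 0.52), and Krt8 was just past the threshold (0.76 ± 0.31, adjusted p = 0.0466). That call for Krt8 held in only 10 of 31 alternatives, with adjusted p-values of up to 0.210.

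Among 6 genes of the response to a salty medulla 5 were tested, 3 of which were lower and 0 higher (median -0.68). Slc14a2, the urea transporter of the inner medullary collecting duct and thin limb, was lower (43.5 ± 16.5 CPM in normal kidneys, 0.0483 ± 0.134 CPM in tumors, -9.51 ± 0.56), and 10 of its 11 tumor reads were in tumor 7, without which the value was -11.84. The inositol transporter Slc5a3 was lower (-3.67 ± 0.26), and the regulator of the response, Nfat5, had a log2 fold change of -0.68 ± 0.20.

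Markers of the neighbouring tubule cells were lower too. All 10 intercalated cell markers were lower (median -7.67), summing to 210.8 to 849.9 CPM in normal kidneys and 1.85 to 13.2 CPM in tumors, with Slc26a4, the bicarbonate exchanger pendrin, at -8.85 ± 0.69 (-9.47 without tumor 7). So were 6 of 6 tested markers of the distal convoluted and connecting tubule (median -7.09), 6 of 6 of the loop of Henle (median -8.82), and 4 of 6 of podocytes (median -2.34). Calb1, a calcium-binding protein of the connecting tubule, fell by 13.60 ± 0.62 on the log2 scale. Of the 9 tested proximal tubule markers 3 were lower and 0 higher (median -0.47). The 3 were Kap (-12.32 ± 1.86, 1.38 to 10152 CPM in normal kidneys), Slc22a8 (-3.74 ± 0.53) and Slc5a2 (-3.54 ± 0.56). Slc7a13 was not tested (0.248 to 731.4 CPM in normal kidneys, 0 to 0.173 CPM in tumors). Summed over the list the level was 2297 to 15334 CPM in normal kidneys and 1010 to 9487 CPM in tumors. Slc34a1 was not past the threshold (-1.15 ± 0.53, adjusted p = 0.0813). DESeq2 (adjusted p = 0.0361), voom with quality weights (0.00224) and library totals (0.0467) called it lower, as did the test without kidney 7 (0.031) or kidney 8 (0.0468).

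The non-epithelial lists behaved differently again. Of 7 macrophage markers 5 were higher and 0 lower (median 1.04), of 7 fibroblast markers 0 were higher and 1 lower (median 0.74), of 6 endothelial markers 1 was higher and 2 lower (median -0.30), and of 5 tested T cell and innate lymphoid markers 0 were higher and 1 lower (median -0.32). Counts in these short lists moved with the libraries and settings, to 2 to 7 macrophage markers higher, 0 to 2 fibroblast markers higher and 0 to 3 lower (3 lower without tumor 7, 2 higher without kidney 7), 0 to 1 endothelial markers higher and 1 to 3 lower, and 0 to 4 T cell and innate lymphoid markers lower. Summed levels in normal kidneys and in tumors were 122.0 to 490.1 and 271.2 to 1563 CPM for macrophage markers, 247.4 to 1487 and 135.3 to 8035 CPM for fibroblast markers, and 288.2 to 494.2 and 242.9 to 711.7 CPM for endothelial markers. Without tumor 7 the tumor sums ended at 747.3 CPM for macrophage and 606.7 CPM for fibroblast markers, and without kidney 9 the macrophage sum of normal kidneys ended at 222.8 CPM. Their part in the levels of the principal cell genes was not tested.

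Within the normal kidneys the principal cell genes did not all vary as 1 unit, although some pairs varied closely together. Over all 10 kidneys r of log2 CPM between pairs of them ran from -0.78 (Fxyd4 and Gata3) to 0.95 (Aqp3 and Hsd11b2). Without kidney 9 it ran from -0.06 (Scnn1a and Fxyd4) to 0.97 (Scnn1g and Gata3). These pairs were not tested. Kidneys 5, 7 and 8 lay below the other 7 in Aqp2 (83.4 to 177.7 against 224.6 to 933.8 CPM), in Aqp3 (36.8 to 45.4 against 76.9 to 135.4 CPM) and in Hsd11b2 (22.3 to 32.9 against 108.6 to 180.8 CPM). These 3 kidneys were noticed in the values, so the ranges are a description. They did not stand apart in Scnn1a (159.4 to 247.0 against 114.2 to 297.6 CPM) or Aqp4. In Scnn1b, Scnn1g and Gata3 the ranges overlapped only through kidney 9 (35.1, 21.9 and 2.83 CPM). Kidney 9 apart, kidneys 5, 7 and 8 lay lower in Scnn1b (28.4 to 49.8 against 50.9 to 67.1 CPM) and Scnn1g (10.0 to 29.2 against 43.8 to 76.5 CPM). The same was true of Gata3 (6.17 to 11.8 against 14.5 to 16.8 CPM). These 3 kidneys were also low in Kcnj1 (44.3 to 89.6 against 227.4 to 371.4 CPM) and in Ppp1r1b, a thick limb marker (6.32 to 27.4 against 61.6 to 199.2 CPM), but not in Umod or Slc14a2. Which part of the kidney each normal region came from is not given in the labels, and its part in these differences was not tested.

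Normal kidney 9 moved the genes in opposite directions. As a percentage of the median of the other 9 kidneys, Aqp2 was at 365.4% and Fxyd4 at 410.9%, both the highest of the 10 kidneys, while Gata3 was at 18.8% and Scnn1a at 53.9%, both the lowest. Aqp3 was at 103.8%, Aqp4 at 169.1%, Hsd11b2 at 79.6%, Scnn1b at 62.3% and Scnn1g at 45.3%. The transcripts of Aqp2 (1419 bases) and Fxyd4 (1957 bases) are shorter than those of Scnn1a (4132 bases) and Gata3 (3978 bases), but Aqp4 (5082 bases), Aqp3 (1829 bases) and Hsd11b2 (1840 bases) did not follow that order. The part of gene length in these values was not tested.

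**Figure D4:**
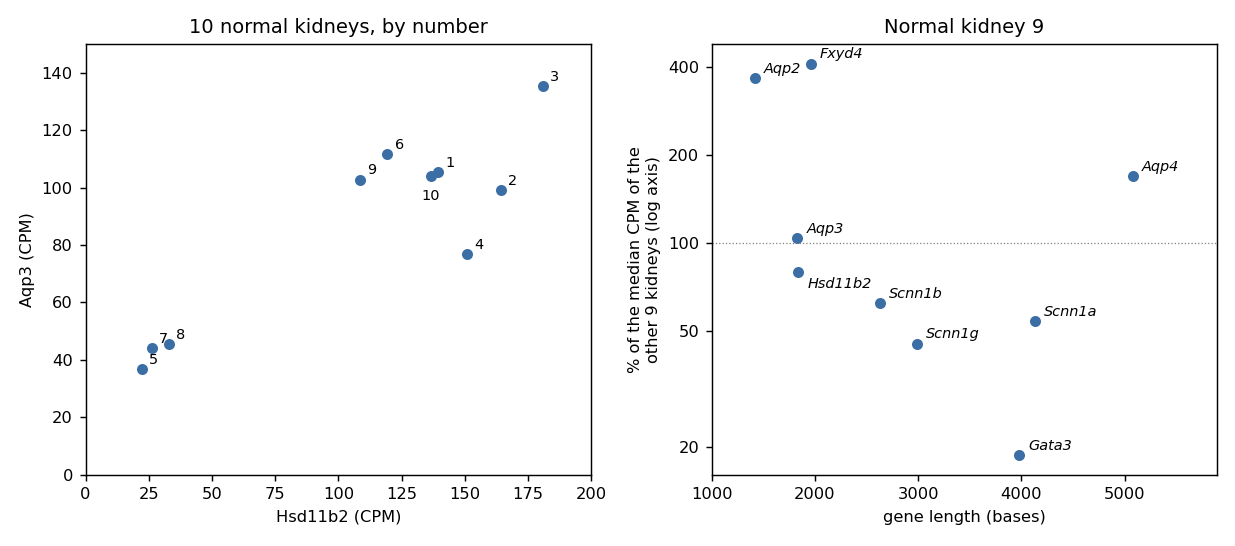
Left, Aqp3 against Hsd11b2 in CPM in the 10 normal kidneys, each marked by its number, with kidneys 5, 7 and 8 at the lower left. Right, the level of each gene in normal kidney 9 as a percentage (log axis) of the median of the other 9 kidneys, against gene length in bases, from 410.9% for Fxyd4 to 18.8% for Gata3.

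Correlations with Aqp2 were computed on log2 CPM for 8 genes, with two-sided permutation tests adjusted over the 8. Kidneys 5, 7 and 8 form a cluster of their own in Aqp3 and Hsd11b2 and are also low in Aqp2. In a change from the plan of all 10 kidneys, these genes were therefore tested over the other 7 only. They gave r = 0.22 (rho = 0.25, permutation p = 0.522) and r = -0.47 (rho = -0.14, permutation p = 0.315). Over all 10 kidneys r was 0.71 for Aqp3 and 0.66 for Hsd11b2, values that include the gap between the clusters and were not tested. Over all 10 kidneys none of the other 6 passed an adjusted p of 0.05. The highest was Fxyd4 (r = 0.64, permutation p = 0.0774, adjusted p = 0.504), whose rho was 0.26 (permutation p = 0.472, adjusted p = 0.681). Its r was -0.02 without kidney 9 and 0.64 without kidneys 9 and 7. Gata3 gave r = -0.25 (permutation p = 0.414) and rho = 0.22 (permutation p = 0.536). The relations to Aqp4 (r = 0.38), Scnn1g (r = 0.37), Scnn1b (r = 0.27) and Scnn1a (r = -0.36) had permutation adjusted p-values of 0.504 to 0.514, and their rho values of 0.49, 0.24, 0.28 and -0.21 had a permutation adjusted p of 0.681.

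Without kidney 9 the r with Aqp2 was higher for 6 of the 8 genes. Over the 9 kidneys left, Gata3 had r = 0.93 (permutation, adjusted p = 0.0126), Scnn1g r = 0.87 (permutation, adjusted p = 0.0204) and Scnn1b r = 0.80 (permutation, adjusted p = 0.0286). Unlike for Aqp3 and Hsd11b2, kidneys 5, 7 and 8 were kept for these genes. Among the 9 kidneys they lay below every other kidney in Aqp2, Gata3, Scnn1g and Scnn1b. The values therefore include that gap and cannot show a relation within either cluster. Scnn1a (r = 0.34), and over 6 kidneys Aqp3 (r = 0.60) and Hsd11b2 (r = 0.44), did not pass the threshold (permutation, adjusted p of 0.405 to 0.423). Over the 8 kidneys without 9 and 7, the kidneys farthest from the median of Aqp2, Gata3 had r = 0.81 (permutation p = 0.0145, adjusted p = 0.0872), Scnn1g r = 0.64 (permutation, adjusted p = 0.178) and Scnn1b r = 0.57 (permutation, adjusted p = 0.196). Fxyd4 had r = 0.64 over these 8 kidneys (permutation p = 0.0842, adjusted p = 0.178). The genes whose profile over the 10 kidneys was most like that of Aqp2, out of 15353, were Tmem185a (r = 0.99), Khk (0.98), Ccdc107 (0.97), Gstk1 (0.97) and Txnrd2 (0.97), and none of the 10 principal cell genes was among them. Without kidney 9, an alternative chosen after seeing the data, the 5 most alike were Usp21, Gid4, Cep95, Mbtps1 and Tmem185a (r = 0.97 to 0.98), with only Tmem185a in both sets. In that order Gata3 went from rank 9096 with kidney 9 to rank 136 without it, Scnn1g from 5016 to 690 and Scnn1a from 9920 to 5780.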

How the data were processed

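Gene counts of 10 tumors and 10 normal kidneys were re-examined. Frozen tissue had been pulverized and extracted with Trizol, and a sequencing company prepared poly(A) libraries. The authors deposited raw counts per gene without normalization, on build mm10 per the labels. The aligner, the counting tool and the use of strand are not given in the sources used here. Groups came from the sample labels. Total counts of 14737516 to 26679704 per library set the precision. Intervals take in counting error alone, because the reads of a group were pooled, and they leave out the spread between animals. No molecular identifiers are named. A count of 0 allows a level that would give 3 counts.

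Counts were normalized with TMM in edgeR 4.0.16 (R 4.3.3), genes with low counts were removed with a count minimum of 10, and the quasi-likelihood test was run on all 20 libraries with no covariate, with Benjamini-Hochberg adjustment over 15354 genes and a threshold of 0.05. The standard error is the size of the log2 fold change divided by the square root of F. CPM used TMM-scaled totals, log2 CPM a prior count of 2, and RPKM the deposited gene length. Permutation tests used 100000 resamples. The fit was tested on simulated data. Alternatives were other scalings, other filters, DESeq2 1.42.0, limma 3.58.1, a replicate block and leaving out libraries. A correlation planned for Avpr2 was not computed because of its few reads. Those for Aqp3 and Hsd11b2, planned over 10 kidneys, were tested over 7, a choice made after the values were seen. The 10 genes and all gene lists were chosen with earlier results of these data known. The genes named are the 10, genes of the lists and the 5 genes most like Aqp2, and the comparisons of tumors 7, 8 and 9 and of kidneys 5, 7, 8 and 9 were picked after their values were seen. The deposited descriptions give 10 separate mice.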

Additional observations from a re-analysis of the deposited data

Results flagged for a closer look

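Among 18 groups of 10 libraries (the 9 testable genes in either tissue), the highest or lowest library stood apart from the rest by Dixon's criterion in 2. For independent samples of a normal distribution chance gives about 1 group in 20. That rate does not hold here, since the groups share libraries and 7 of 10 tumors had 0 reads of Scnn1g. Scnn1g had a log2 CPM of 0.47 in tumor 7, with 30 of the 36 reads that all tumors had of this gene. Fxyd4 had a log2 CPM of 6.20 in normal kidney 9, which was 410.9% of the median CPM of the other 9 kidneys.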

How the results depend on the processing

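The 9 testable principal cell genes were called lower under all 31 alternatives, except that a count minimum of 50 removed Gata3 and left 8. Values without single libraries are given beside the genes, and voom with quality weights gave -9.44 for Aqp3, -8.24 for Hsd11b2 and -7.44 for Gata3. With upper quartile factors or library totals the log2 fold changes of all genes shifted, from a median of -0.02 to one of -0.14, and the 3661 lower and 3631 higher calls became 4650 and 3000 or 4554 and 2850. Genes of the other lists numbered 75 lower and 14 higher, with 9 higher without tumors 7, 8 and 9. Fxyd2 turned from -0.28 to 0.067 with quality weights and to 0.144 without kidney 9 and tumor 7, and ran from -0.368 to 0.0743 when single libraries were left out, the highest value being that without kidney 9. Sgk1 ran from -0.518 to 0.0813, again the highest without kidney 9. Cul3 was 0.0015 with no filter on low counts and 0.0021 without tumors 7, 8 and 9, and ran from -0.0647 without kidney 9 to 0.0122 without kidney 5. Same-numbered libraries were not taken as pairs in the main test, because the labels do not state that equal numbers mark the same mouse. The correlation of their deviations ran from -0.14 (number 9) to 0.38 (median 0.26, 9 of 10 over 0.1), and 5 of 10 kidneys correlated best with their own number. Tumors and normal kidneys came from the same mice, and only the match of the numbers is open. The main test models no pairing and treats the libraries as independent. With the numbers as a replicate block each of the 9 genes was called lower, with values of -12.13 for Aqp2, -7.66 for Aqp3 and -5.93 for Gata3, and 3886 genes were called lower and 3979 higher. The block also called Slc34a1 lower (-1.03, adjusted p = 0.01) and 5 urothelial markers lower and 1 higher.

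Correlations with Aqp2 depended on the kidneys and the scale. Without kidney 9 the r was 0.34 for Scnn1a, 0.80 for Scnn1b, 0.87 for Scnn1g, 0.44 for Hsd11b2 (over 6 kidneys), -0.0207 for Fxyd4 and 0.93 for Gata3. Without the 2 kidneys farthest from the median it was 0.81 for Gata3 and 0.64 for Fxyd4. The Spearman rho of Gata3 was 0.22 over all 10 kidneys, and Aqp3 turned to -0.36 with library totals. The cause was not tested. Avpr2 had too few reads to test, and the tumor levels of Aqp2, Aqp4, Scnn1b and Scnn1g rest on few reads.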
